A study of Homo sapiens with 15 samples.

Results

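The IFIT and OAS genes code for antiviral effectors that are switched on by interferon. The 4 IFIT genes (IFIT1, IFIT2, IFIT3 and IFIT5) and the 4 OAS genes (OAS1, OAS2, OAS3 and OASL) were measured, 8 of the 11963 genes on the arrays. They were chosen by name, with earlier results of these data known. Where several probe sets were annotated to a gene, the one with the highest mean level on the 15 arrays was read. The cells were MCF-10A, an immortalized, non-tumorigenic line of human mammary epithelium, and total RNA was taken 48 hours after infection with a retrovirus or an adenovirus. In the knockdown arm, 2 arrays each were run for shDBD, a short hairpin RNA against all isoforms of the transcription factor p63, for shTA, a hairpin against the p63 isoforms that carry the transactivating domain, and for the shRNA vector. In the overexpression arm, 3 arrays each were run for ΔNp63α, an isoform without the N-terminal transactivating domain, for TAp63γ, an isoform with it, and for the overexpression vector. Every group, vectors included, had therefore been infected, and an uninfected culture was not analysed here. The labels do not say which virus served which arm. They call the replicates biological, but whether each came from its own infection is not said, and the spread that the p-values measure may then be technical. The level of the targeted gene itself was not analysed here and could not serve to check the labels.

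As background, infected cells detect foreign RNA or DNA through sensors such as RIG-I and MDA5, and the adaptors behind these sensors lead to the secretion of type I and type III interferons. Interferon receptors then act through JAK kinases and the factor ISGF3, which contains IRF9 and binds the interferon-stimulated response element (ISRE) in target promoters. IFIT proteins bind viral RNA or translation factors: IFIT1 recognises RNA caps that lack ribose methylation and blocks their translation, IFIT3 binds and stabilises IFIT1, IFIT2 is linked to inhibition of translation and to cell death, and IFIT5 binds RNA with a 5′ triphosphate. OAS1, OAS2 and OAS3 are enzymes that sense double-stranded RNA and make 2′-5′ oligoadenylates, small messengers of the antiviral response. OASL has no such enzyme activity and is known to enhance signalling by RIG-I.

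On the RefSeq gene map, IFIT2, IFIT3, IFIT1 and IFIT5 stand in 1 cluster on chromosome 10, with IFIT1B between IFIT3 and IFIT1. OAS1, OAS3 and OAS2 are direct neighbours on chromosome 12, whereas 61 protein-coding genes separate OASL from OAS2. Promoter windows of 300 bases, 250 before and 50 after the start site, were given by RefSeq (GRCh38.p14) for 5 of the 8 genes: IFIT1, IFIT3 (with 2 start sites), IFIT5, OAS1 and OAS3. IFIT2, OAS2 and OASL were not matched. The ISRE core, searched on both strands as GAAA, any 2 bases and GAAA again, was found in 5 of these 6 windows, against 3.57% of the 35116 promoter windows of the same length in the table. The exception was OAS1, whose window held no match with that spacing. It does hold gaaacgaaa, in which 1 base stands between GAAA and GAAA. That spacing was not searched, so the window cannot be said to lack an ISRE. The OAS1 window also held a match to the GAS element, searched as TTCNNNGAA, 168 to 160 bases before its start. Of all windows, 7.66% hold one. The second start site of IFIT3 had a match to the half-site of the p53 family, 138 to 129 bases before the start, which 6.63% of all windows hold. IFIT3 had ISRE cores 156 to 147 and 122 to 113 bases before one start and 94 to 85 and 51 to 42 bases before the other. These matches are descriptions of the letters in the windows and not measurements of binding.

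The stretch from 160 bases before to 10 bases after the start is shown for 4 genes, because they span the range of responses described here. IFIT1 moved most, and IFIT5 rose with ΔNp63α and did not pass the test with TAp63γ. OAS3 changed in both arms, and OAS1 has no match to the ISRE core as searched in its window. All lie on the forward strand, at chr10:89392463-89392632 (IFIT1), chr10:89414408-89414577 (IFIT5), chr12:112938314-112938483 (OAS3) and chr12:112906802-112906971 (OAS1), and capitals mark the ISRE cores, which do not overlap each other.
IFIT1: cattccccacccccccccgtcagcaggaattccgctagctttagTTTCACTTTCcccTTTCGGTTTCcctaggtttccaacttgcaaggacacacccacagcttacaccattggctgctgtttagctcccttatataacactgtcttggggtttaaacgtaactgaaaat
IFIT5: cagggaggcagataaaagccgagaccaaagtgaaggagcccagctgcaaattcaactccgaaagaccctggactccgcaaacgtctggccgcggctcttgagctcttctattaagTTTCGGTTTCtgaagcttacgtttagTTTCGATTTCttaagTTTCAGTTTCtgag
OAS3: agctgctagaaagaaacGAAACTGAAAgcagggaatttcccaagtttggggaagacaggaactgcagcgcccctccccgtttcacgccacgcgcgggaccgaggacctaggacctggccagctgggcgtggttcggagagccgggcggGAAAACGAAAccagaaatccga
OAS1: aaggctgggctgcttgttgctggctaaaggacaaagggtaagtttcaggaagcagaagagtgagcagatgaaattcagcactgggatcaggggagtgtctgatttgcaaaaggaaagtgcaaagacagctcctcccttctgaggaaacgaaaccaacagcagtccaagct
IFIT1 carries 2 cores, 116 to 107 and 103 to 94 bases before its start. IFIT5 carries 3, of which the last runs over the start site itself, at -45 to -36, -19 to -10 and -4 to 6. OAS3 carries one 143 to 134 and another 12 to 3 bases before its start.

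Levels are log2 values from RMA, a method that scales the arrays processed together to 1 distribution. A change of most transcripts in one direction would therefore not be seen. A difference of 1 on this scale is a factor of 2. The distributions differed between the arms (array medians of 7.19 to 7.21 in the knockdown arm and 6.95 to 6.98 in the overexpression arm), so treatments were compared within an arm, and the level of one gene was not set against that of another. An array has no read depth, and the number of arrays limits the precision. A value below the 20th percentile of its array (5.06 to 5.43) was treated as no more than background. Among the 8 genes this held for IFIT1 on 1 of 3 overexpression vector arrays and for OAS2 on 3 of 3 of them, and for no other value of these probe sets. All 6 measured markers of basal mammary epithelium lay above that percentile on all 15 arrays. The luminal markers PGR and KRT19, the immune marker LYZ and the fibroblast marker LUM lay below it on all 15. The immune marker MS4A1 lay below it on 12 and the fibroblast marker COL3A1 on 14. Every other measured luminal, immune and fibroblast marker, KRT18, CD14 and DCN among them, lay above it on all 15. The percentile therefore does not set the cell types apart. Changes are given as log2 change ± SE from limma, with Benjamini-Hochberg adjusted p-values over all genes, and a gene is said to have risen or fallen where the adjusted p was below 0.05.

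**Figure D1:**
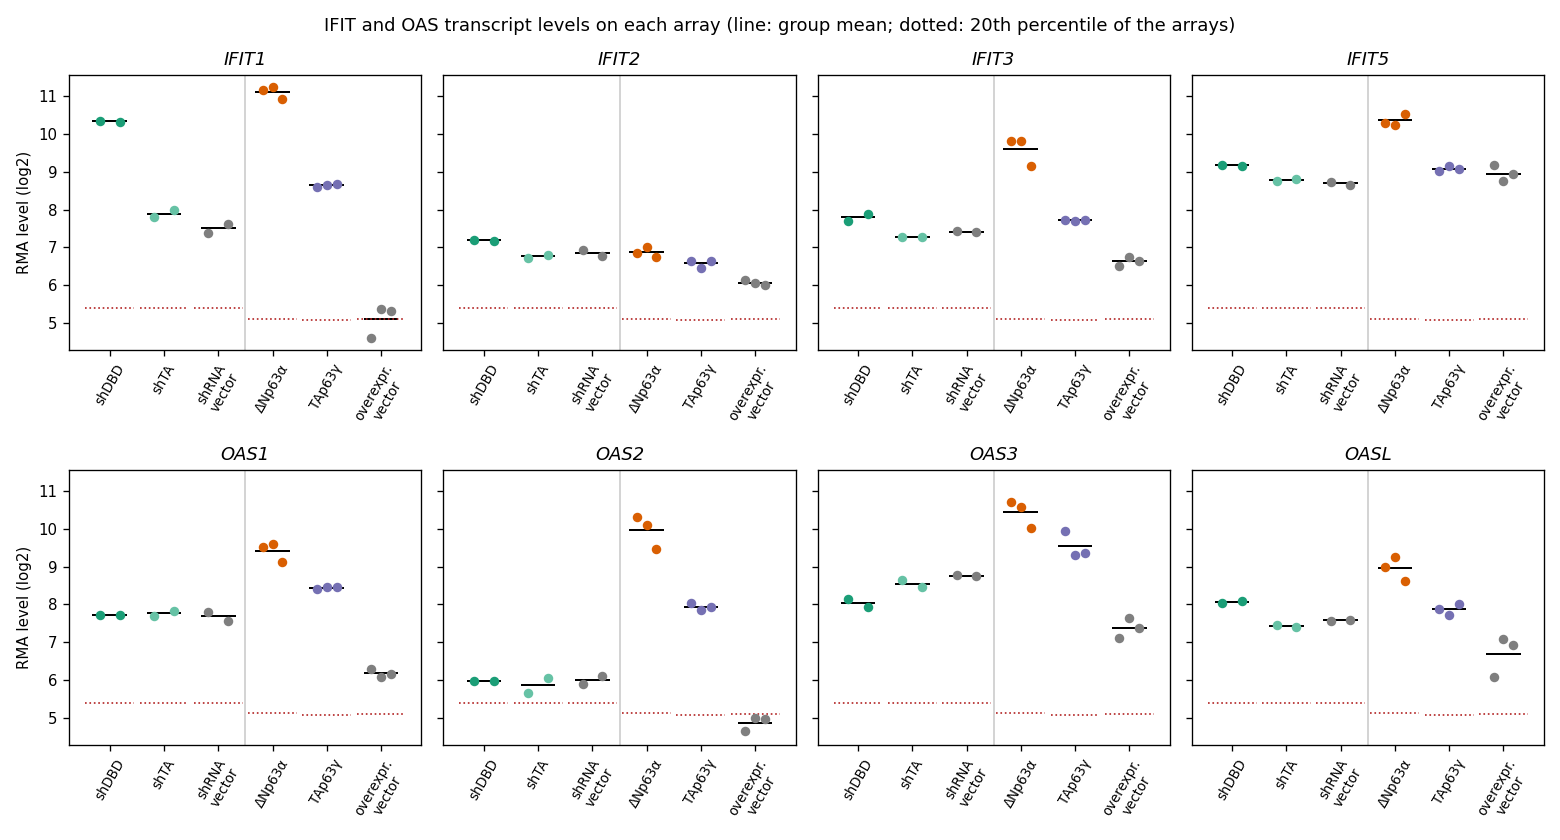
Level of each IFIT and OAS transcript (log2, RMA) on each of the 15 arrays, 1 panel per gene. Points are arrays, black lines are group means, dotted red lines are the mean 20th percentile of the group's arrays, and the vertical line separates the arms; IFIT1 stands at 10.32 and 10.36 with shDBD and at 10.94 to 11.24 with ΔNp63α, above every vector array of the same arm.

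The comparison of shDBD with its vector shows which transcripts differed with the hairpin against all p63 isoforms. The labels name 1 hairpin per target, and the level of p63 was not analysed. An effect of the hairpin itself and an effect of p63 loss cannot be told apart here. IFIT1 stood far above the rest: it rose 7.11-fold. IFIT2 and IFIT5 rose by less, OAS3 fell, and the other 4 genes did not pass the test. That is 4 of 8 genes called, against 21.3% of all genes, with 3 higher (11.1% of all genes) and 1 lower (10.2% of all genes). The median change of the 8 genes was 0.36, against 0.00043 over all genes.

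IFIT1 measured 10.36 and 10.32 on the shDBD arrays, against 7.39 and 7.63 on the shRNA vector arrays. The groups lay far apart, and the change of 2.83 ± 0.19 (adjusted p = 6.88e-08) was the fifth highest of all genes measured. In bulk RNA, a change of this kind in every cell and a larger one in fewer cells cannot be told apart, which applies to all changes below. IFIT2, the relative linked to cell death, measured 7.19 and 7.18 with shDBD, against 6.92 and 6.77 with the vector. Its arrays did not overlap, as was the case for 31.8% of all genes in the higher direction, and it rose by 0.34 ± 0.10 (adjusted p = 0.026). IFIT5, the binder of triphosphate RNA, measured 9.19 and 9.15 with shDBD, against 8.74 and 8.65 with the vector, a rise of 0.48 ± 0.13 (adjusted p = 0.0131). IFIT3, the partner of IFIT1, measured 7.70 and 7.89 with shDBD, against 7.42 and 7.40 with the vector. Its arrays were also separate, but the difference of 0.38 ± 0.17 did not pass the test (adjusted p = 0.13).

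The OAS genes did not share a direction in this comparison. OAS3, the largest of the synthetases, measured 8.15 and 7.94 with shDBD, against 8.78 and 8.75 with the vector. It fell by 0.72 ± 0.23 on the log2 scale, or 1.65-fold (adjusted p = 0.0334), and its arrays did not overlap, which 29.9% of all genes showed in the lower direction. OASL measured 8.03 and 8.10 with shDBD, against 7.58 and 7.58 with the vector, and its difference of 0.49 ± 0.25 did not pass (adjusted p = 0.204). The second OASL probe set passed in a fit over probe sets (0.72 ± 0.19, adjusted p = 0.0163), with 7.83 and 8.18 on the shDBD arrays against 7.19 and 7.39 on the vector arrays, so the call for OASL depends on the probe set read. OAS1 measured 7.72 and 7.72 with shDBD, against 7.80 and 7.56 with the vector, and OAS2 measured 5.98 and 5.96, against 5.89 and 6.10. For both, the vector arrays enclosed the shDBD arrays, and the 95% intervals of the difference ran from -0.25 to 0.33 for OAS1 and from -0.47 to 0.42 for OAS2.

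Apart from IFIT1, these calls rested on few arrays. With any one of shRNA vector replicate 2, shDBD replicate 1 or shDBD replicate 2 left out, IFIT1 was the one member still called, and the fall of OAS3 missed the threshold without any single one of the 4 arrays (adjusted p = 0.0768 to 0.198).

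In the same comparison, 11 of 26 other measured antiviral effectors rose and 1 fell, with a median of 0.22. Over all genes, 11.1% rose and 10.2% fell, and the counts for each role below are to be read beside these shares. IFI44L rose by 1.68 ± 0.12, RSAD2, the antiviral enzyme viperin, by 1.61 ± 0.19, and IFI27 by 1.43 ± 0.11. The effector that fell was the exonuclease ISG20, which changed by -0.56 ± 0.11 and was singled out after its value was seen. Of 9 transducers and factors, IRF9, the DNA-binding part of ISGF3, rose by 0.91 ± 0.11, IRF5 changed by -0.49 ± 0.12, a fall, and 7 did not pass. Of 11 sensors and adaptors, RIGI, which codes for RIG-I, rose by 0.56 ± 0.12 and the DNA sensor IFI16 fell, changing by -0.94 ± 0.11. Of 5 receptor genes, IFNGR2, a chain of the interferon gamma receptor, fell (-0.39 ± 0.09) and none rose. None of the 14 measured interferon genes passed, 0 of them at an unadjusted p below 0.05 either, and 8 of them, IFNA1 and IFNA2 among them, lay below the 20th percentile on all 15 arrays.

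Cell type markers moved with this knockdown in part, where 11.1% of all genes rose and 10.2% fell. The summed log2 level of the 6 basal markers was 69.0 to 69.2 with shDBD, against 73.9 to 74.1 with the vector, and 4 of them fell. The 8 luminal markers summed to 66.2 to 66.7, against 64.3 to 64.4, and 2 of them rose, ERBB3 by 1.06 and GATA3 by 0.90. The 9 immune markers summed to 57.5 to 58.0, against 56.2 to 56.9, and 1 of them, CD14, rose by 1.27 while LYZ lay below the 20th percentile on every array. The 7 fibroblast markers summed to 48.3 to 48.9, against 46.1 to 46.3, and 1 of them, DCN, rose by 2.37 while COL3A1 and LUM lay below it in both groups. The difference between the 3′ and 5′ probe sets of actin, a sign of RNA integrity, was 0.0668 ± 0.0262 with shDBD and -0.0868 ± 0.00982 with the vector (SD, n = 2 each). The part of these differences in the IFIT and OAS results was not tested.

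The comparison of shTA with the same vector concerns the hairpin against the isoforms with the transactivating domain, and the same limit applies. None of the 8 genes passed limma's test, nor had any an unadjusted p below 0.05, where 2.29% of all genes passed (274), and their median change was -0.11. IFIT1 measured 7.80 and 7.99 with shTA, against 7.39 and 7.63 with the vector. These arrays did not overlap, as for 24.2% of all genes in the higher direction, and the difference of 0.39 ± 0.19 had an adjusted p of 0.419 and a 95% interval from -0.02 to 0.79. The other 7 genes differed by -0.21 (OAS3) to 0.08 (IFIT5), and the lowest and highest bounds of their intervals were -0.70 for OAS3 and 0.37 for OAS1. In a fit of the knockdown arm alone, IFIT1 passed (adjusted p = 0.0316) and was the one member to do so. IRF9 fell (-0.46 ± 0.11, adjusted p = 0.0394), 1 of 26 other effectors rose (GBP2, a guanylate-binding protein, by 0.50 ± 0.12), and IFNGR1, a chain of the interferon gamma receptor, rose by 0.70 ± 0.14. No ligand, sensor or feedback inhibitor passed. Both knockdown comparisons share the shRNA vector arrays.

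In the direct comparison of shDBD with shTA, all 4 IFIT genes passed the test and none of the 4 OAS genes did. With shDBD, 4 of 8 genes were higher than with shTA, against 9.14% of all genes (18.4% in either direction), and the median difference was 0.41. IFIT1 was higher by 2.45 ± 0.19 (adjusted p = 3.5e-07), 5.45-fold, and no IFIT1 value of one hairpin came near those of the other (10.36 and 10.32 with shDBD, against 7.80 and 7.99 with shTA). IFIT2 was higher by 0.42 ± 0.10 (adjusted p = 0.00803), IFIT3 by 0.52 ± 0.17 (adjusted p = 0.041) and IFIT5 by 0.39 ± 0.13 (adjusted p = 0.0423). OASL had a larger difference than these 3, 0.64 ± 0.25, and did not pass (adjusted p = 0.0906), while its second probe set did (1.01 ± 0.19, adjusted p = 0.00191). The second IFIT5 probe set lost the call that the first had (0.35 ± 0.16, adjusted p = 0.196). OAS3 measured 8.15 and 7.94 with shDBD, against 8.65 and 8.46 with shTA, and its difference of -0.51 ± 0.23 did not pass (adjusted p = 0.154). IRF9 (1.37 ± 0.11), IRF7 (0.54 ± 0.12) and RIGI (0.64 ± 0.12) were higher with shDBD as well, IFI16 was lower (-1.12 ± 0.11), and of the 26 other effectors 9 were higher and 1 lower. The small differences were close to the threshold: with 1 of the 6 knockdown arrays left out in turn, 1 or 2 of the 8 genes were called, IFIT1 each time. Leaving out overexpression vector replicate 3 or TAp63γ replicate 3, which enter through the shared variance alone, left 2. Cell type markers differed here too: 4 of 6 basal markers were lower with shDBD (ITGB4 by -1.54 and EGFR by -1.17 among them), 4 of 8 luminal markers were higher (FOXA1 by 0.71, GATA3 by 0.69, KRT8 by 0.69 and ERBB3 by 0.52), and CD14 (1.17) and DCN (1.54) were higher. Their part in the result was not tested.

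**Figure D2:**
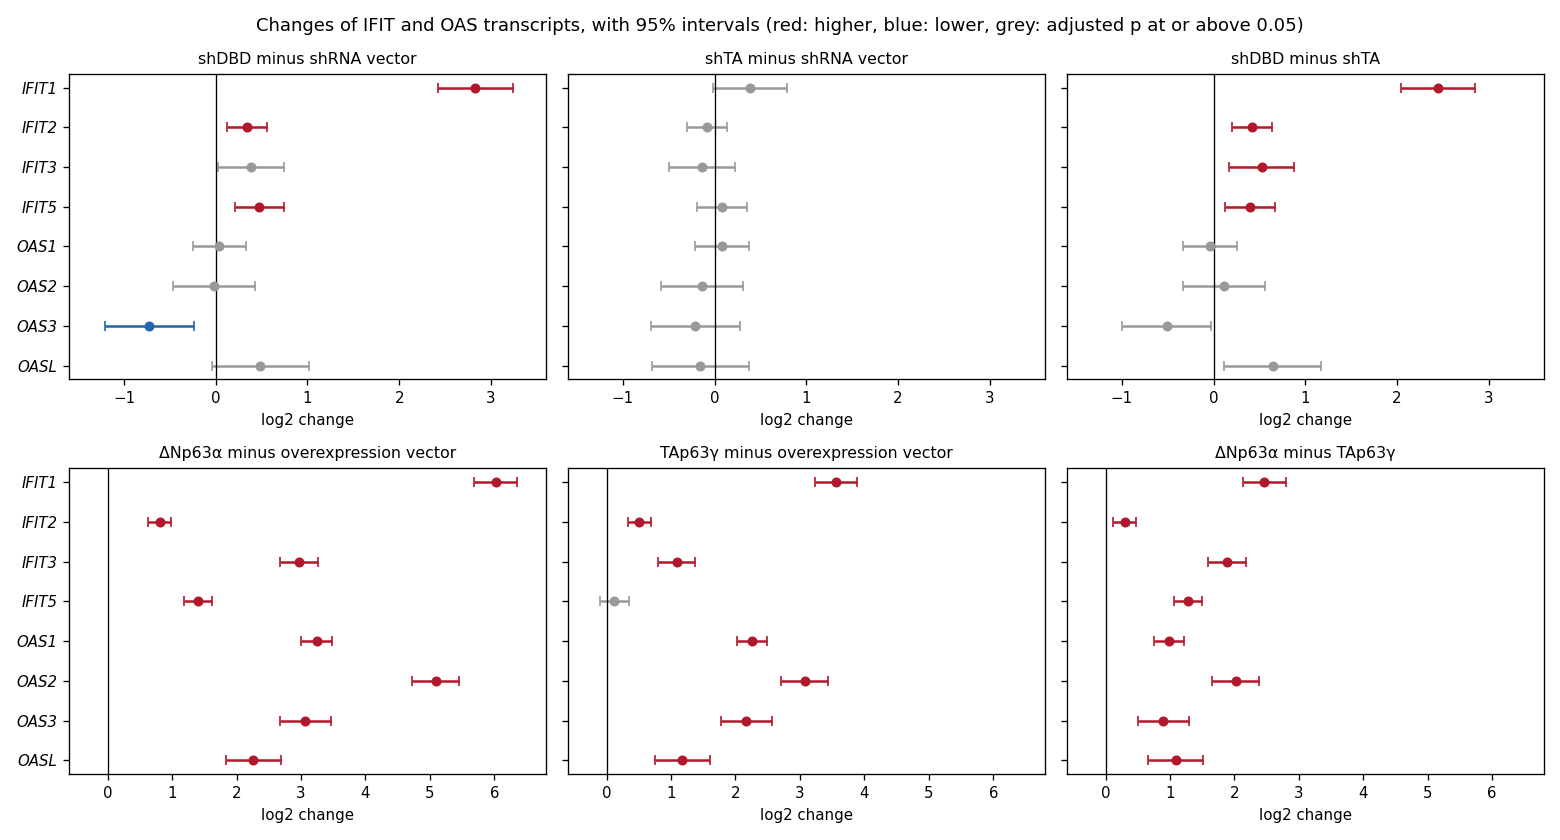
Log2 change of each gene in the 6 comparisons, with 95% intervals from limma (n = 2 arrays per group in the upper row, 3 in the lower row; both rows have their own axis). Red marks a rise, blue a fall and grey an adjusted p at or above 0.05: IFIT1 is farthest right in the shDBD and in all 3 lower panels, and no gene is coloured in the shTA panel.

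With overexpression of ΔNp63α, set against its vector, every one of the genes rose. That is 8 of 8 higher, against 12.3% of all genes (28.9% in either direction), and 7 of 8 rose at least 2-fold, against 2.06% of all genes. Their median change was 3.01, and that over all genes -0.0049. IFIT1 rose 65.1-fold and had the second highest change of all genes measured, and IFIT2 moved least, at 1.75-fold. OAS2 rose by at least 4.87 on the log2 scale on the probe set read, whose vector values were at background, and by 2.29 on its second probe set.

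IFIT1 measured 11.17, 11.24 and 10.94 with ΔNp63α, against 4.61, 5.37 and 5.31 with the overexpression vector. Its change was 6.02 ± 0.16 (adjusted p = 2.29e-13), or 5.86 with values floored at the 20th percentile, since 1 vector value lay below it. On each array's own scale, IFIT1 lay between the 93.7th and the 94.9th percentile of probe sets with ΔNp63α. With the vector it lay at the 13.05th to 24.4th. IFIT3 measured 9.82, 9.82 and 9.16, against 6.51, 6.75 and 6.63 with the vector, a rise of 2.97 ± 0.14, or 7.81-fold (adjusted p = 2.69e-10). IFIT5 measured 10.30, 10.25 and 10.54, against 9.18, 8.75 and 8.94, a rise of 1.40 ± 0.10 (adjusted p = 6.46e-08). IFIT2 measured 6.86, 7.02 and 6.74, against 6.14, 6.06 and 6.01, a rise of 0.80 ± 0.08 (adjusted p = 2.5e-06). For all 4 IFIT genes the lowest ΔNp63α array lay above the highest vector array, which 16.3% of all genes showed.

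All 3 synthetases rose along with OASL. OAS2 measured 10.32, 10.11 and 9.47 with ΔNp63α, against 4.65, 5.002 and 4.97 with the vector, where all 3 values lay below the 20th percentile. The change was 5.09 ± 0.17 as fitted (adjusted p = 5.68e-12), and with the vector values at the floor it was at least 4.87. OAS1 measured 9.52, 9.61 and 9.13, against 6.30, 6.07 and 6.16, a rise of 3.24 ± 0.11, or 9.46-fold (adjusted p = 7.5e-12). OAS3 measured 10.72, 10.58 and 10.02, against 7.11, 7.65 and 7.37, a rise of 3.06 ± 0.19, or 8.36-fold (adjusted p = 6.56e-09). OASL measured 8.996, 9.25 and 8.63, against 6.07, 7.07 and 6.94, a rise of 2.26 ± 0.20, or 4.80-fold (adjusted p = 5.26e-07). No array of one group reached the other in any OAS gene. The third ΔNp63α array was the lowest of its group for 7 of the 8 genes and the highest for IFIT5, with a mean over the 8 genes of 9.33, against 9.71 and 9.73 on the other ΔNp63α arrays.

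With TAp63γ, 7 of 8 genes rose, against 20.5% of all genes (43.4% in either direction), and 6 of 8 rose at least 2-fold, against 4.30% of all genes. The median change was 1.67, against -0.02 over all genes. IFIT1 rose 11.8-fold, and IFIT5 did not pass. OAS2 rose by at least 2.85 on the log2 scale on the probe set read and by 0.67 on its second, so its place among the 8 genes depends on the probe set.

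IFIT1 measured 8.61, 8.66 and 8.69 with TAp63γ, against 4.61, 5.37 and 5.31 with the vector, a rise of 3.56 ± 0.16 (adjusted p = 5.82e-11), or 3.40 with floored values. IFIT3 measured 7.72, 7.71 and 7.72, against 6.51, 6.75 and 6.63, a rise of 1.09 ± 0.14 (adjusted p = 8.23e-06). IFIT2 measured 6.64, 6.46 and 6.63, against 6.14, 6.06 and 6.01, a rise of 0.51 ± 0.08 (adjusted p = 0.00011). The arrays of these 3 genes did not overlap between the groups, as for 23.6% of all genes. IFIT5 measured 9.01, 9.15 and 9.07 with TAp63γ, against 9.18, 8.75 and 8.94 with the vector. The TAp63γ arrays fell inside the range of the vector arrays, and the difference of 0.12 ± 0.10 had an adjusted p of 0.382 and a 95% interval from -0.10 to 0.34, so a rise as large as that with ΔNp63α lies outside it. The second IFIT5 probe set did not pass either (-0.07 ± 0.13, adjusted p = 0.714).

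The 4 OAS genes all rose with TAp63γ. OAS2 measured 8.05, 7.85 and 7.94, against 4.65, 5.002 and 4.97 with the vector, a rise of 3.07 ± 0.17 as fitted (adjusted p = 9.93e-10), and of at least 2.85 with the vector values at the floor. OAS1 measured 8.40, 8.45 and 8.45, against 6.30, 6.07 and 6.16, a rise of 2.26 ± 0.11, or 4.78-fold (adjusted p = 2.45e-10). OAS3 measured 9.93, 9.32 and 9.37, against 7.11, 7.65 and 7.37, a rise of 2.17 ± 0.19, or 4.49-fold (adjusted p = 1.26e-07). All TAp63γ values of these genes stood above all vector values. OASL measured 7.88, 7.72 and 8.01, against 6.07, 7.07 and 6.94, a rise of 1.18 ± 0.20, or 2.26-fold (adjusted p = 0.00017), again without overlap.

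All 8 genes were higher with ΔNp63α than with TAp63γ, against 19.2% of all genes (39.8% in either direction), and 5 of 8 were at least 2-fold higher, against 2.93% of all genes. The median difference was 1.18. The isoforms differed most in IFIT1 (2.46 ± 0.16, 5.52-fold, adjusted p = 9.41e-09) and OAS2 (2.02 ± 0.17, 4.05-fold, adjusted p = 2.24e-07), whose 95% intervals overlap each other. IFIT3 (1.88 ± 0.14, adjusted p = 4.45e-08) and IFIT5 (1.28 ± 0.10, adjusted p = 1.35e-07) followed. The intervals of OAS2 and IFIT3 overlap as well. On its second probe set OAS2 differed by 1.61 ± 0.21, less than IFIT3, so the place of OAS2 depends on the probe set read. OASL (1.09 ± 0.20), OAS1 (0.99 ± 0.11) and OAS3 (0.90 ± 0.19) stood close to each other, at adjusted p-values of 0.000454, 4.75e-06 and 0.00113. IFIT2 had the smallest difference, 0.30 ± 0.08 (adjusted p = 0.0098), and missed the threshold without ΔNp63α replicate 2 (adjusted p = 0.054). In none of the 8 genes did the arrays of both isoforms overlap, as for 22.6% of all genes in that direction. The amount of each isoform was not measured here, so the comparison is between the infected cultures and not between equal doses of the isoforms.

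For 4 of the genes there was a second probe set, and the size of a change depended on which was read. For OAS2, the second probe set measured 9.11, 9.05 and 8.08 with ΔNp63α, against 6.49, 6.78 and 6.10 with the vector. Its vector values were not low, unlike those of the first, and it rose by 2.29 ± 0.21 with ΔNp63α (adjusted p = 1.15e-06), where the fitted rise of the first was 5.09. With TAp63γ the second OAS2 probe set rose by 0.67 ± 0.21 (adjusted p = 0.0188), where the fitted rise of the first was 3.07. For OAS1, the second probe set rose by more than the first, 3.85 ± 0.15 with ΔNp63α and 2.92 ± 0.15 with TAp63γ. The second probe sets of OASL (2.44 ± 0.16 and 1.41 ± 0.16) and IFIT5 (1.37 ± 0.13 with ΔNp63α) moved much as the first did in the overexpression arm. Which transcripts each probe set detects was not examined here.

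**Figure D3:**
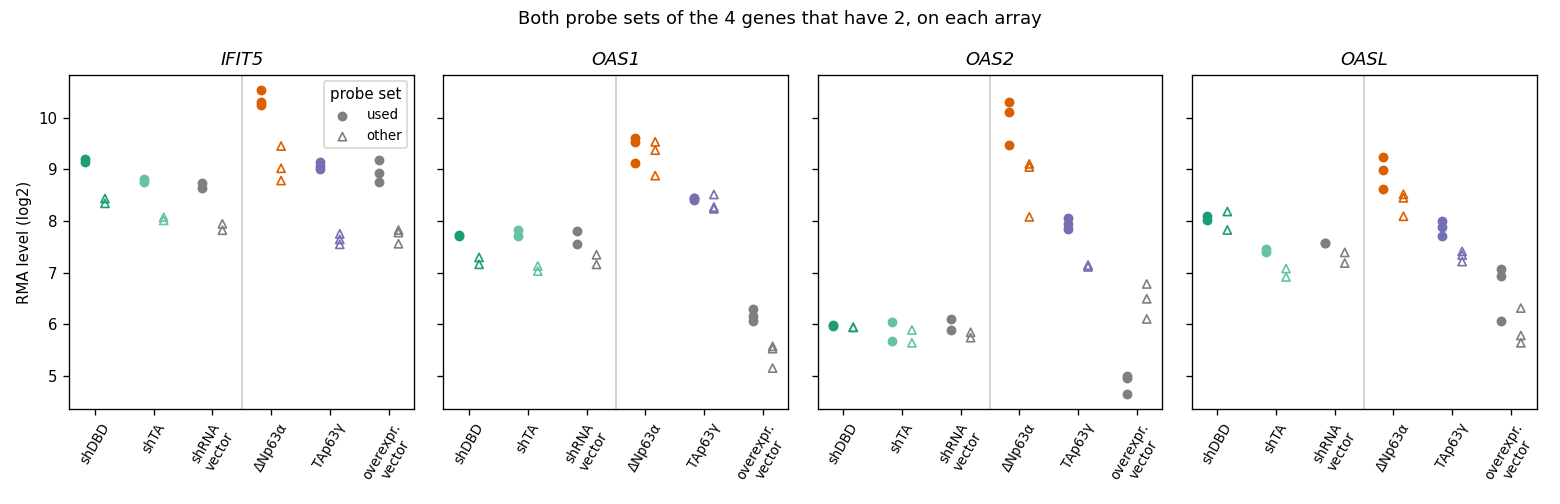
Level (log2, RMA) of both probe sets of IFIT5, OAS1, OAS2 and OASL on each array; filled circles are the probe sets used for the gene and open triangles the others, and colours mark the groups on the axis. With the overexpression vector the OAS2 probe sets lie apart, at 4.65 to 5.002 for the one used and 6.10 to 6.78 for the other.

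The rest of the pathway was read in both overexpression comparisons, which share the vector arrays, beside the 12.3% of all genes that rose with ΔNp63α and the 20.5% that rose with TAp63γ. With ΔNp63α, 26 of 26 other antiviral effectors rose, led by IFI44 (5.69 ± 0.09), IFI27 (5.43 ± 0.09) and the ubiquitin-like modifier ISG15 (5.34 ± 0.14), with a list median of 2.77. With TAp63γ, 24 of 26 rose and none fell, led by IFI27 (5.06 ± 0.09), IFI6 (3.66 ± 0.11) and ISG15 (3.04 ± 0.14), with a list median of 1.58. XAF1, a proapoptotic interferon target, had the smallest difference there (-0.12 ± 0.08) and did not pass. Between the isoforms, 23 of 26 were higher with ΔNp63α and none lower. The largest differences were in the membrane protein IFITM1 (3.33 ± 0.10), IFI44L (3.27 ± 0.10) and the helicase gene DDX60 (3.23 ± 0.18). Other roles were mixed between the isoforms. With ΔNp63α, 4 of 9 transducers and factors were higher and 3 lower. Of 11 sensors and adaptors 6 were higher and 3 lower, and of 5 receptor genes 1 was higher and 1 lower. Over all genes, 39.8% differed.

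No measured interferon gene passed against the vector with either isoform (0 of 14 each). At an unadjusted p below 0.05, limma's test gave 0 with ΔNp63α and 2 with TAp63γ. The listed genes IFNA6, IFNK and IFNE and the type III genes IFNL1, IFNL2 and IFNL3 were not measured. Of the 14, 8 lay below the 20th percentile on all 15 arrays, and IFNB1 on 12. These values therefore cannot show whether interferon was made. Between the isoforms, 2 of 14 passed, IFNA4 and IFNA16, with values at or near background: IFNA16 lay below the 20th percentile on all 15 arrays and IFNA4 on 2 of 3 TAp63γ arrays. Of 5 receptor genes, IFNGR2 (0.92 ± 0.07) and IFNGR1 (0.43 ± 0.11) rose with ΔNp63α, and IFNAR2, a chain of the type I receptor (0.68 ± 0.11), and IFNGR1 (0.42 ± 0.11) rose with TAp63γ. None fell with either, and 28.9% of all genes were called with ΔNp63α and 43.4% with TAp63γ.

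Among 9 transducers and factors, 7 rose and 1 fell with ΔNp63α, and 7 rose and 2 fell with TAp63γ. IRF7, the factor that amplifies interferon gene expression, rose by 3.06 ± 0.10 with ΔNp63α and 1.44 ± 0.10 with TAp63γ. IRF9 rose by 2.51 ± 0.09 with ΔNp63α and 2.16 ± 0.09 with TAp63γ, and IRF1 by 1.08 ± 0.08 and 0.86 ± 0.08. Among 11 sensors and adaptors, 8 rose and 1 fell with ΔNp63α, and 5 rose and 3 fell with TAp63γ. RIGI (3.84 ± 0.10), IFIH1, the gene of MDA5 (2.52 ± 0.15), and TLR3 (1.17 ± 0.12) rose most with ΔNp63α. RIGI (1.43 ± 0.10), the kinase gene IKBKE (1.29 ± 0.09) and the adaptor gene TICAM1 (1.03 ± 0.08) rose most with TAp63γ.

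Of 3 feedback inhibitors, USP18, which removes ISG15 and damps receptor signalling, rose by 2.33 ± 0.11 with ΔNp63α and 1.64 ± 0.11 with TAp63γ, SOCS1 rose by 0.79 ± 0.10 with each, and SOCS3 did not pass. ABCE1, which codes for a ribosome recycling factor, fell with both isoforms (-0.42 ± 0.10 with ΔNp63α, adjusted p = 0.00562, and -1.17 ± 0.10 with TAp63γ, adjusted p = 1.53e-07). PDE12, an enzyme that degrades 2′-5′ oligoadenylates, did not pass with either (0.07 ± 0.06 and -0.03 ± 0.06).

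Markers of epithelial cell types also moved in the overexpression arm, where 28.9% of all genes were called with ΔNp63α and 43.4% with TAp63γ. The 6 basal markers summed to 72.5 to 74.6 with ΔNp63α and 74.4 to 76.2 with TAp63γ, against 70.1 to 72.7 with the vector, on the log2 scale. With ΔNp63α, 3 of them rose and 1 fell, and with TAp63γ, 4 rose and 2 fell. KRT14 rose by 1.90 with ΔNp63α and 2.08 with TAp63γ, KRT5 by 0.40 and 0.998, and CDH3 by 1.40 with TAp63γ. EGFR fell with both (-0.59 with ΔNp63α and -0.44 with TAp63γ), and ITGB4 fell with TAp63γ (-0.74). The 8 luminal markers summed to 57.1 to 57.8 with ΔNp63α and 58.0 to 58.7 with TAp63γ, against 58.7 to 59.2 with the vector. With ΔNp63α, 2 of them fell, KRT18 (-0.78) and KRT8 (-0.30), and none rose. With TAp63γ, 1 fell, KRT18 (-0.63), and 1 rose. The 7 fibroblast markers summed to 42.8 to 43.3 with ΔNp63α and 42.7 to 43.5 with TAp63γ, against 42.8 to 43.5 with the vector. DCN fell with ΔNp63α (-0.39) and did not pass with TAp63γ. The summed log2 level of the 9 immune markers was 52.2 to 52.4 with ΔNp63α and 51.4 to 52.3 with TAp63γ. With the vector it was 52.6 to 52.7. CD14 fell with both isoforms (-0.48 with ΔNp63α and -0.55 with TAp63γ), and LYZ and MS4A1 lay below the 20th percentile on all of these arrays. The actin difference was 0.162 ± 0.0594 with ΔNp63α and 0.0772 ± 0.0663 with TAp63γ, against 0.17 ± 0.0578 with the vector (SD, n = 3 each). The part of these differences in the IFIT and OAS results was not tested.

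**Figure D4:**
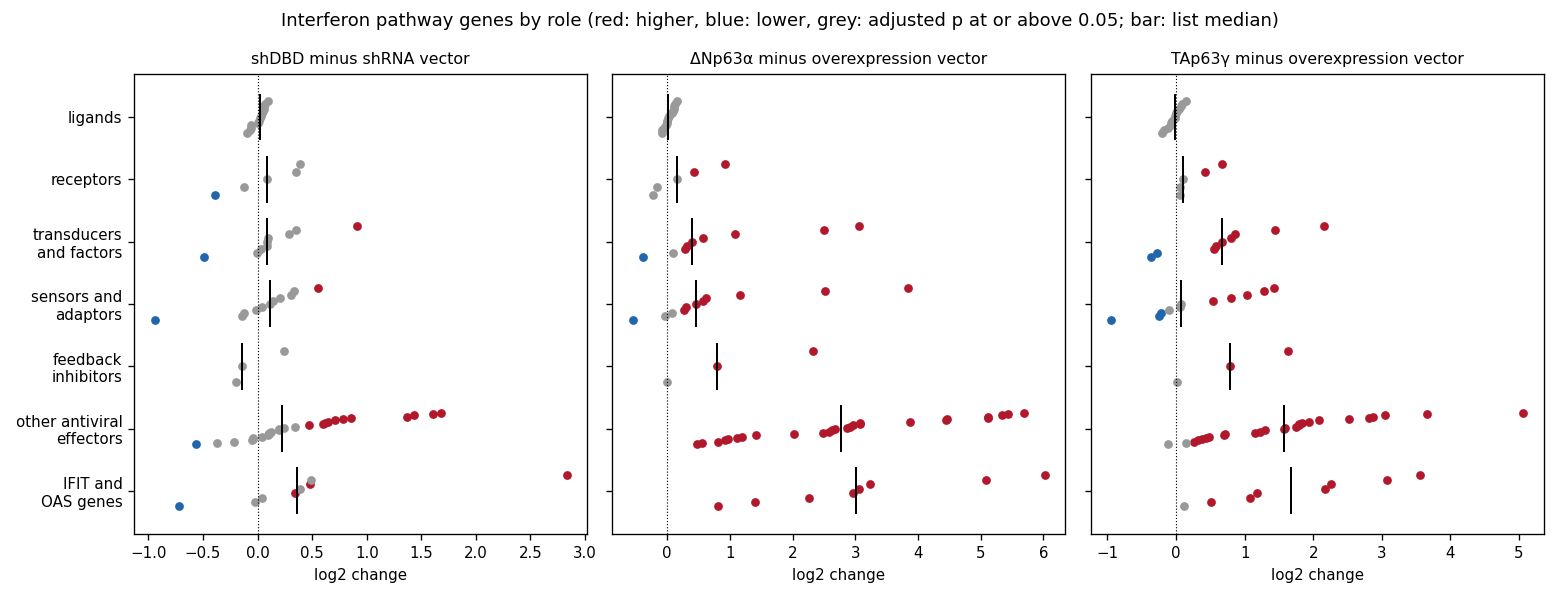
Log2 change of each measured interferon pathway gene by role, with shDBD, ΔNp63α and TAp63γ against their vectors (each panel has its own axis). Points are genes, red where they rose, blue where they fell and grey where the adjusted p was at or above 0.05, and black bars are list medians; with ΔNp63α and TAp63γ the ligands stay near 0 while the other effectors have medians of 2.77 and 1.58.

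The 8 genes were unlike in how closely they followed each other. With each gene centred on the mean of its arm, Pearson's r over the 15 arrays between a gene and the mean of the other 7 was highest for OAS2 (0.981) and lowest for IFIT5 (0.808). The 5 other genes most like the mean of the 8 were PSMB9, an immunoproteasome subunit (0.991), BST2, the virus tether tetherin (0.991), IFI44 (0.989), UBE2L6, the conjugating enzyme for ISG15 (0.984), and MX1, an antiviral GTPase (0.983). These values describe arrays that share 6 groups and the normalization of their arm, and the knockdown arm alone gave another order. Over its 6 arrays, r with each other member lay between -0.20 and 0.23 for OAS2, between -0.83 and -0.96 for OAS3 with the IFIT genes and OASL, and between 0.86 and 0.98 for IFIT5 with the other IFIT genes. The likeness does not extend to every comparison: MX1 rose by 3.87 with ΔNp63α and 1.75 with TAp63γ and differed by 0.12 with shDBD, where IFIT1 rose by 2.83.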

How the data were processed

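Transcript levels of MCF-10A cells were measured on 15 Affymetrix arrays in 6 groups. The deposited values are log2 levels per probe set, made by the authors with RMA, per the submitters' processing notes; whether all arrays were processed together is not given in the sources used here, and RMA narrows differences at low levels. No intensity files were used, so background settings were taken as deposited.

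The platform annotation gave 1 gene symbol for 19064 of the 22277 probe sets and several for 1043; 2108 were unlisted there and 62 are controls. Of a gene's probe sets the one highest on average was kept, which left 11963 genes. These were fitted with limma 3.58.1 in R 4.3.3, with a mean per group, a variance trend and 9 residual degrees of freedom shared by both arms; tests were two-sided, adjusted by Benjamini-Hochberg within a comparison at 0.05. The code was tested on simulated data. The members, lists and tests were chosen with earlier results of these data known. Named in the text were all members, up to 3 called and 1 uncalled gene of a pathway list per comparison, and the 5 genes most like the members. Cell type markers were named outside this limit. Groups came from the sample labels. Same-numbered arrays were not paired by the labels; alternatives covered the variance, the normalization, low values, the probe sets, a replicate block and each array left out. RefSeq supplied the promoter sequences and gene order.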

Additional observations from a re-analysis of the deposited data

How the results depend on the processing

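Each of the 48 changes (8 genes in 6 comparisons) was recomputed under 25 alternative settings, 15 of which leave out 1 array. Of the 1200 values, 1143 kept their direction and their side of the threshold, 37 lost the call, 11 gained it and 9 changed sign. In the overexpression arm, the single lost call was IFIT2 between the isoforms without ΔNp63α replicate 2, and IFIT1 was called in all 25 settings in every comparison that called it. The mean of both probe sets lowered the OAS2 rise with ΔNp63α to 3.69 and with TAp63γ to 1.87. In the knockdown arm, leaving out 1 array gave 1 to 5 genes called with shDBD and 1 to 5 between the hairpins, and a fit of each arm alone gave 6 of 8 for both, and 1 with shTA. The replicate block left 2 genes called between the hairpins and took IFIT2 with shDBD to an adjusted p of 0.0525. Its same-numbered arrays deviated together with r of 0.00 to 0.07 in the knockdown arm and -0.63 to 0.48 in the overexpression arm. Overexpression arrays of unlike number had r of -0.73 to 0.68, the highest for overexpression vector replicate 1 and ΔNp63α replicate 3. A block by number does not cover such shared deviations, and their source was not tested. Over all genes, shTA called 150 with that block, 1064 in a fit of its arm alone, 87 to 131 without any single one of the 4 arrays compared and 472 without ΔNp63α replicate 3, in place of 274. Between the hairpins, 3359 were called in that arm's own fit, 1348 without shDBD replicate 1 and 1463 without shTA replicate 2, in place of 2197, and with shDBD 1650 without shRNA vector replicate 1, in place of 2543. With every probe set tested, TAp63γ called 7859 of 19064 and the isoforms differed in 7144. The changes of sign were all of uncalled values. With the mean of probe sets they were OAS2 with shDBD (0.063), OAS1 with shTA (-0.047) and OAS1 between the hairpins (0.054). With 1 array left out, OAS1 ran from -0.082 to 0.16 with shDBD, -0.040 to 0.20 with shTA and -0.10 to 0.017 between the hairpins, and OAS2 from -0.13 to 0.080, -0.32 to 0.054 and -0.078 to 0.30. The cause of these changes was not tested.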
